A study of Mus musculus with 28 samples.

Results

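Foxa2 and Foxa3 were compared as partners of Hnf4a in induced hepatocyte-like cells (iHep cells), fibroblasts converted toward a liver fate by introduced transcription factors. The comparison rests on 10 of the 28 RNA-seq libraries of the series, chosen by their labels alone: 4 libraries of iHep cells made with Foxa2 and Hnf4a, and 6 of iHep cells made with Foxa3 and Hnf4a. All 10 began as C57BL/6 mouse embryonic fibroblasts taken 13.5 days post coitum and received both factors from pGCDNsam retroviruses, so the Hnf4a virus was common to both groups. As far as the labels state it, the groups differ only in which Foxa cDNA was supplied; the labels name neither a passage nor the time spent in culture. The labels do not say whether libraries of a group came from separate infections, cultures or embryos, so the spread between them may be technical and the p-values measure that spread alone. No library with an empty virus was analysed here. Reference points were 2 libraries of the untreated fibroblasts, 2 of hepatocytes taken from C57BL/6 mice aged 10 weeks, and 6 of iHep cells made with Foxa1 and Hnf4a.

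Foxa1, Foxa2 and Foxa3 are forkhead transcription factors of early endoderm and liver. They bind DNA through a winged-helix domain and can engage sites in closed chromatin, which is why they are called pioneer factors. Hnf4a is a nuclear receptor that drives many genes of the differentiated hepatocyte, and any of the Foxa factors joined with it has been used to turn fibroblasts into iHep cells. Early embryos need Foxa2 to form the node and notochord, while Foxa3 is abundant in adult liver and gut.

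The Foxa2 libraries held 25354288 to 30983889 assigned reads and the Foxa3 libraries 25580687 to 30178320. A difference in library type ran almost exactly along the comparison. The small nuclear RNA Rn7sk, which lacks a poly(A) tail, was at 0 to 2.16 CPM (counts scaled to a common library size) in the 4 Foxa2 libraries and 0.959 CPM in Foxa3 library 1, but at 37.2 to 72.5 CPM in Foxa3 libraries 2 to 6. The short ribosomal protein mRNA Rps29 moved with it, at 23.8 to 32.3 CPM in the Foxa2 libraries, 58.7 CPM in Foxa3 library 1 and 425 to 831 CPM in Foxa3 libraries 2 to 6. Of all 28 libraries, 14 were of the low type (Rn7sk under 10 CPM) and 14 of the high type. Rps29 did not follow Rn7sk in all of them: the low-type libraries titled 48hr_4a3_del2_1 and 48hr_4a3_del2_2 held 372 and 373 CPM of Rps29. The Foxa1 iHep libraries were split evenly with 3 of each type. The factor and the library type can therefore be separated here only through Foxa3 library 1 and through the Foxa1 libraries. For each gene named as a result it is stated whether Foxa3 library 1 sided with Foxa2 or with the other Foxa3 libraries. Its position was read on log2 CPM between the mean of the 4 Foxa2 libraries (position 0) and the mean of Foxa3 libraries 2 to 6 (position 1), and above 0.5 it was taken to side with Foxa3. A second fit, with a term for library type over all 28 libraries (the set-term fit), is given beside the results as the set term. On log2 CPM over all genes tested, Foxa3 library 1 correlated at r = 0.929 to 0.943 with the Foxa2 libraries and at 0.948 to 0.952 with the other Foxa3 libraries. These correlations are across genes, which are not independent replicates.

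The introduced factors matched the labels in all 10 libraries. Foxa2 stood at 3281, 2364, 988 and 1248 CPM in the 4 Foxa2 libraries, at 0 CPM in Foxa3 libraries 2 to 6 and at 0.628 CPM in Foxa3 library 1. Foxa3 stood at 0.219, 0.161, 0.0315 and 0 CPM in the Foxa2 libraries, and its lowest, median and highest values in the Foxa3 libraries were 653 (library 1), 1158 and 2074 CPM. The groups were thus fully apart for both genes, and Foxa3 library 1 sided with Foxa3 for both. The adjusted p was 2.7e-08 for Foxa2 and 3.8e-11 for Foxa3 (edgeR quasi-likelihood test, Benjamini-Hochberg adjusted over 16499 genes). For comparison, isolated hepatocytes held 104 CPM of Foxa2 and 157 CPM of Foxa3. Their fitted fold changes are not given, since against a group at or near 0 these depend on the prior count and are no bound. The fitted values printed below for Mmp12, Sftpd, Foxc2, Ifi44, Serpina1e, Fam25c, Tfap2b and others against a group near 0 have the same limit. The virus-borne and the resident transcripts of a factor were counted together and cannot be told apart.

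Hnf4a, supplied in both arms, was not equal between them. The 4 Foxa2 libraries read 258, 316, 151 and 33.3 CPM, and the Foxa3 libraries ran from 548 (library 1) through a median of 827 to 1505 CPM. No Foxa2 library reached the lowest Foxa3 library. Hnf4a was 4.57-fold higher with Foxa3 (log2 fold change, Foxa2 over Foxa3, -2.19, SE 0.51, adjusted p = 0.0038), and Foxa3 library 1 sided with Foxa3 at position 0.74. With the set term the value was -1.33 and its adjusted p 0.15. Hepatocytes held 1006 CPM of Hnf4a. Differences described below between Foxa2 and Foxa3 cells are therefore also differences between cells with less and with more Hnf4a mRNA, and the part of the Hnf4a level in them was not tested. Foxa1, which no virus in these arms carried, was close to the floor: 0.0365, 0.129, 0.535 and 1.43 CPM with Foxa2 and 0 to 0.198 CPM with Foxa3 (adjusted p = 0.034). That call was lost without Foxa2 library 3 (adjusted p = 0.061), without Foxa2 library 4 (0.32), without any 1 of Foxa3 libraries 2 to 6 (0.051 to 0.065) and with the set term (0.52), and Foxa3 library 1 sided with Foxa2.

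**Figure D1:**
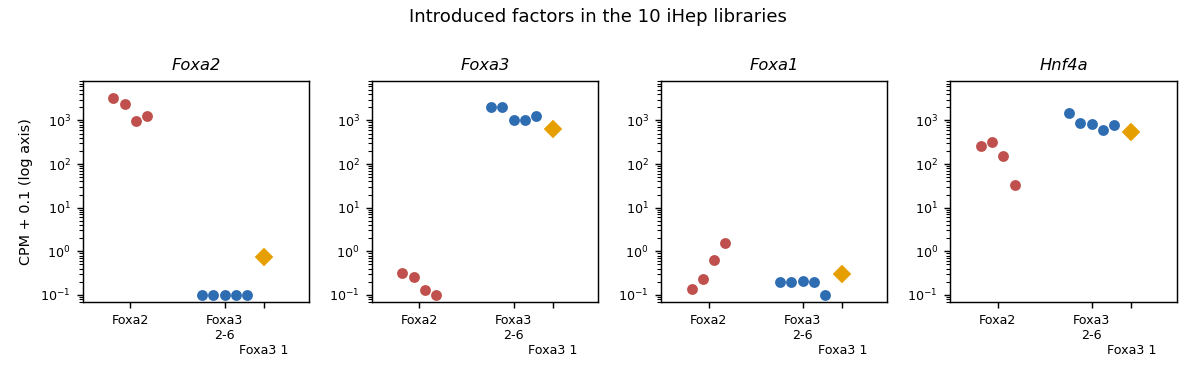
Level of Foxa2, Foxa3, Foxa1 and Hnf4a in each of the 10 iHep libraries, as CPM plus 0.1 on a log axis: red circles are Foxa2 libraries 1 to 4, blue circles Foxa3 libraries 2 to 6 and the orange diamond Foxa3 library 1. The Hnf4a points of the Foxa2 libraries lie between 33.3 and 316 CPM, all under the Foxa3 libraries.

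In both kinds of iHep cell plasma protein genes summed to less than in hepatocytes, and mesenchymal matrix genes to less than in fibroblasts. Single genes did not all follow these sums, as given below for Apoa1, Angptl4 and Fbln1. Albumin (Alb), chosen to check the label, read 914, 18.6, 14.5 and 3.04 CPM in the Foxa2 libraries and 10.8, 25.4, 57.4, 58, 163 and 15.4 CPM in Foxa3 libraries 1 to 6, against 140035 CPM in hepatocytes and 8.16 CPM in fibroblasts. It did not pass (log2 fold change 2.11, adjusted p = 0.14), and that value leans on Foxa2 library 1 at 914 CPM. Foxa3 library 1 was the lowest Foxa3 library, lay inside the Foxa2 range and counted as Foxa2. The 33 plasma protein genes tested summed to 1192 to 5261 CPM with Foxa2, against 293237 CPM in hepatocytes and 766 CPM in fibroblasts. With Foxa3 they summed to 7023 CPM in library 1, the lowest Foxa3 library, and to 8254 to 17482 CPM in libraries 2 to 6. The 29 mesenchymal matrix genes summed to 6499 to 11821 CPM with Foxa2 and 1905 to 4506 CPM with Foxa3, against 99347 CPM in fibroblasts and 2285 CPM in hepatocytes. The leukocyte marker Ptprc was at 0 to 0.0344 CPM and the blood gene Hba-a1 at 0 in all 10 libraries, levels too low to give library 1 a side. These were bulk cultures, so fewer cells of a type and less RNA of that type per cell cannot be told apart.

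Of the 16499 genes tested, 5139 (31.1%) differed between Foxa2 and Foxa3 iHep cells: 2643 (16.0%) were higher with Foxa2 and 2496 (15.1%) lower. The difference was at least 2-fold in 2870 of them (17.4%), and in 2519 (15.3%) the 4 Foxa2 libraries did not overlap the 6 Foxa3 libraries. Over the whole table the log2 fold change had a median of 0.03. With the set term 800 genes (4.85%) were called, 297 higher (1.80%) and 503 lower (3.05%) with Foxa2; 573 were called the same way in both fits and 3 the opposite way. When Foxa3 library 1 was the only Foxa3 library kept, 280 of 16946 genes (1.65%) were called, 69 higher (0.407%) and 211 lower (1.25%) with Foxa2.

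Where Foxa3 library 1 fell was read over the 6343 genes (38.5%) called in a fit that did not use it. It sided with Foxa3 in 2658 of them (41.9%) and with Foxa2 in 3685 (58.1%). The share depended on what the same gene did between library types among the Foxa1 iHep cells. In the 3272 of these genes also called between the 2 library types within Foxa1 cells, the direction was the same in 3247 (99.2%), and there Foxa3 library 1 sided with Foxa3 in 32.0%. In the 3071 genes not called between types within Foxa1 cells it sided with Foxa3 in 52.1%. Among the 84 genes named here, picked by rule from the largest changes and from gene lists, it sided with Foxa3 for 63 and with Foxa2 for 21, which is no estimate for genes at large. Of the 81 named genes called, 40 were also called the same way between library types within Foxa1 cells, 1 (Atp12a) the opposite way, and 40 were not called there. Rn7sk, which defines the library types, is counted in the 84, the 21 and the 40 called the same way, so its place was fixed beforehand. The Foxa1 values are printed below for part of these genes only, and the part of the library type in the differences was not tested.

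**Figure D2:**
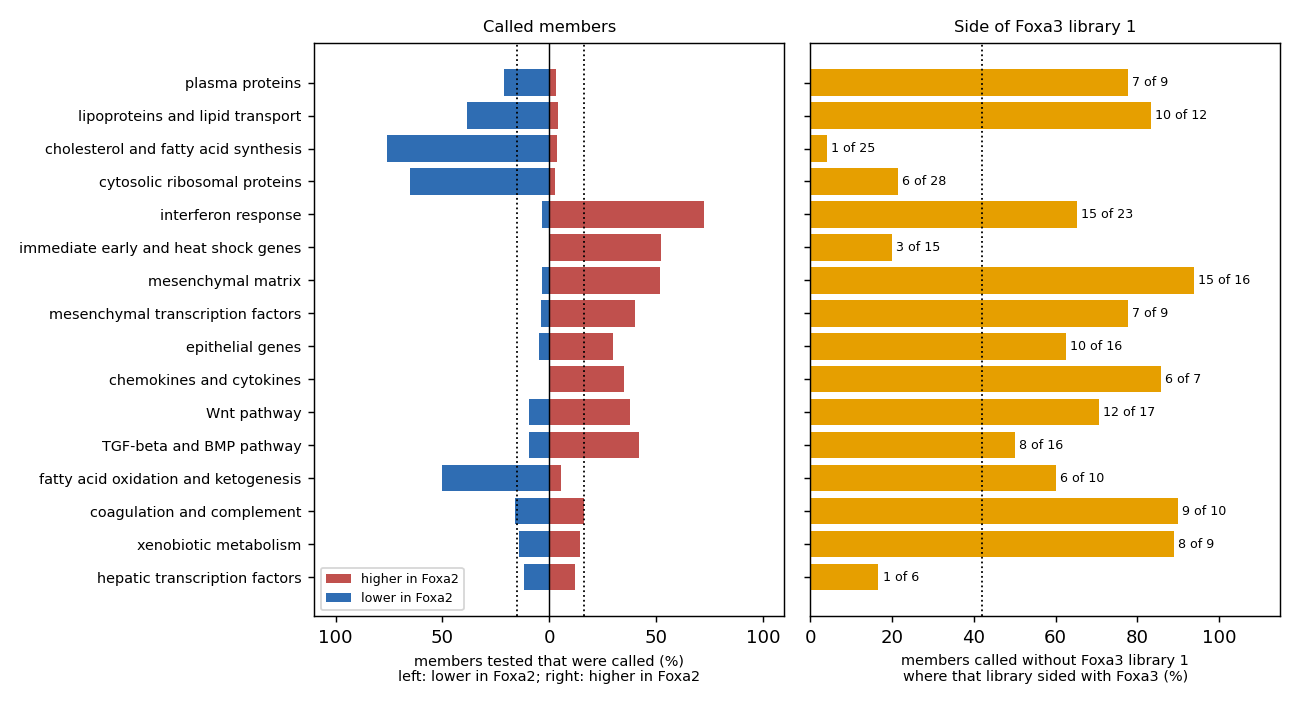
Left, share of the tested members of 16 gene lists that were called higher (red, to the right) or lower (blue, to the left) with Foxa2, with dotted lines at the shares among all genes (16.0% and 15.1%); right, share of the members called without Foxa3 library 1 for which that library sided with Foxa3, with a dotted line at 41.9%. Matrix, plasma protein, lipoprotein and cytokine genes lie to the right of that line, and cholesterol, ribosomal protein and immediate early genes to its left.

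Several secreted liver proteins were higher with Foxa3, and Foxa3 library 1 mostly kept to its group there. Of 33 plasma protein genes 7 were lower and 1, the copper carrier Cp, higher with Foxa2, and Foxa3 library 1 sided with Foxa3 in 7 of the 9 members called without it, and for Cp. Some of the 7 lower members are alpha-1-antitrypsin copies, nearly identical genes, so their calls are not independent. The shares of all genes were 16.0% higher and 15.1% lower, and the list's median log2 fold change was -0.11, so most of its members passed in neither direction. Fgb, the beta chain of fibrinogen, read 119, 126, 14.5 and 162 CPM with Foxa2 and 961, 1436 and 4400 CPM (lowest, median, highest) with Foxa3. It was 19.9-fold higher with Foxa3 (log2 fold change -4.31, SE 0.71, adjusted p = 0.00047; set term -3.70, adjusted p = 0.011), with the groups apart and Foxa3 library 1, at 1289 CPM, inside the Foxa3 range. Trf, the iron carrier transferrin, read 138, 424, 117 and 292 CPM against 1014, 1669 and 2679 CPM, a 7.55-fold difference (adjusted p = 0.0012) that also held with the set term (adjusted p = 0.016). Foxa3 library 1 held 1587 CPM and sided with Foxa3.

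Afp, the fetal form of albumin, separated the groups at low levels. It read 6.79, 0.258, 0.504 and 0.679 CPM with Foxa2 and 20.6, 44.1 and 111 CPM with Foxa3, a log2 fold change of -4.71 (SE 1.20, adjusted p = 0.0068) and of -6.79 without Foxa2 library 1. The set-term value was -6.06 (adjusted p = 0.022). Foxa3 library 1 stood at 45.9 CPM, on the Foxa3 side. The alpha-1-antitrypsin copies, inhibitors of neutrophil elastase, went the same way: Serpina1b read 386, 32.3, 14.5 and 92.5 CPM against 821, 2504 and 3502 CPM (18.4-fold, adjusted p = 0.0025), and Serpina1e 4.27, 0.258, 0.063 and 0.643 CPM against 40.8, 114 and 183 CPM (84.8-fold, adjusted p = 0.00089). Foxa2 library 1 was the highest Foxa2 library for both; without it the log2 fold changes moved from -4.20 to -5.70 and from -6.41 to -8.43. Foxa3 library 1 sided with Foxa3 for both, and both passed with the set term (adjusted p = 0.049 and 0.011). Serpina1b and Serpina1e were also lower in the low-type than in the high-type Foxa1 libraries (log2 -2.83 and -3.28, adjusted p = 0.011 and 0.0093). Afp did not pass there (log2 2.15, adjusted p = 0.16). The Serpina1 genes are nearly identical copies, so how reads were shared among them is uncertain. Ahsg, the mineral-binding fetuin-A, did not follow. It read 1010, 536, 71.6 and 129 CPM with Foxa2 and 133, 1463 and 4403 CPM with Foxa3, overlapped between groups and did not pass (adjusted p = 0.075). Foxa3 library 1 was the lowest Foxa3 library and sided with Foxa2. The call was made without Foxa2 library 1 (log2 fold change -3.02, adjusted p = 0.042) and without Foxa3 library 1 (-2.44, adjusted p = 0.033).

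Of 31 clotting and complement genes 5 were higher and 5 lower with Foxa2, close to the shares of all genes (16.0% and 15.1%), and Foxa3 library 1 sided with Foxa3 in 9 of the 10 called without it. Serpinf2, the plasmin inhibitor alpha-2-antiplasmin, read 3.61, 2, 0.756 and 0.964 CPM with Foxa2 and 30.5, 235 and 273 CPM with Foxa3, or 113-fold higher with Foxa3 (log2 fold change -6.82, SE 0.97, adjusted p = 0.00015; set term -6.06, adjusted p = 0.0024). Library 1 held 224 CPM, inside the Foxa3 range. Complement C3, the hub of the complement cascade, was the reverse: 377, 528, 253 and 441 CPM with Foxa2 against 3.24 (library 1), 25.8 and 50.4 CPM with Foxa3. That 16.6-fold difference (adjusted p = 0.0034) lay beyond the other Foxa3 libraries in library 1, which sided with Foxa3 at position 1.72, yet the set-term value was 1.51 with an adjusted p of 0.56. Hepatocytes held 19007 CPM of C3. Between library types within Foxa1 cells C3 was higher in the low type (log2 3.57, adjusted p = 0.0078). Serpinf2 did not pass there (log2 -1.84, adjusted p = 0.092).

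Genes of lipoprotein and lipid transport were lower with Foxa2 in 10 of 26 members and higher in 1 (Mttp), beside 15.1% and 16.0% of all genes. The list median was -1.47. Library 1 sided with Foxa3 in 10 of 12 members called without it and for Mttp, and 5 members were called lower with the set term. Apoa1, which forms the core of HDL particles, read 3535, 6319, 2570 and 1827 CPM against 7588, 17217 and 19763 CPM, while hepatocytes held 6414 CPM. It was 4.52-fold higher with Foxa3 (adjusted p = 0.0051), but library 1 was the lowest Foxa3 library, sat at the midpoint (position 0.50, counted as Foxa3), and the set-term fit did not call it (-0.56, adjusted p = 0.39). Angptl4, an inhibitor of lipoprotein lipase, read 90.6, 13.2, 2.87 and 12.8 CPM against 354, 1206 and 1360 CPM (34.2-fold, adjusted p = 0.0014; log2 fold change -5.10, and -6.73 without Foxa2 library 1; set term adjusted p = 0.035). Library 1 sided with Foxa3 for Angptl4, at 354 CPM the lowest Foxa3 library, and hepatocytes held 92.1 CPM. Apoa1 and Angptl4 were also lower in the low-type than in the high-type Foxa1 libraries (log2 -2.32 and -3.33, adjusted p = 0.00028 and 0.0046).

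Enzymes of liver metabolism moved in both directions. Fatty acid oxidation and ketogenesis genes were lower with Foxa2 in 9 of 18 members and higher in 1, beside 15.1% and 16.0% of all genes. Library 1 sided with Foxa3 in 6 of 10, and none was called with the set term. The single gene higher with Foxa2 was Pdk4, the kinase that shuts pyruvate out of the citric acid cycle, at 1192, 700, 338 and 331 CPM against 95.3, 192 and 233 CPM (3.79-fold, adjusted p = 0.0013; set term 0.097). Library 1, at 201 CPM, sided with Foxa3. Among genes of sugar and amino acid metabolism, Pcx, which carboxylates pyruvate for glucose synthesis, read 68.4, 69.2, 39 and 42.4 CPM against 99, 139 and 147 CPM (2.43-fold, adjusted p = 0.00098; set term 0.031). Pygl, the liver form of glycogen phosphorylase, read 21.4, 7.92, 21.2 and 16.2 CPM against 67.6, 99.9 and 146 CPM (6.29-fold, adjusted p = 0.0011; set term 0.035). Ahcy, which clears S-adenosylhomocysteine, read 261, 147, 223 and 160 CPM against 415, 786 and 867 CPM (3.6-fold, adjusted p = 0.0014; set term 0.1). Library 1 sided with Foxa3 for these 3 genes, and for Pcx it was the highest library of all at 147 CPM. Pygl and Ahcy were also lower in the low-type than in the high-type Foxa1 libraries (log2 -1.95 and -1.42, adjusted p = 0.0014 and 0.0018). Pcx and Pdk4 did not pass there (adjusted p = 0.094 and 0.23).

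A pair of hepatocyte enzymes ran the other way. Sult1d1, a sulfotransferase, read 18.8, 9.83, 17.4 and 0.893 CPM with Foxa2, while the 6 Foxa3 libraries held 3 counts in all, with library 1 at 0 (adjusted p = 0.0025; set term 0.14). Tat, the first enzyme of tyrosine breakdown, read 5.73, 5.77, 7.65 and 97.3 CPM with Foxa2 and 0.0992, 0.562 and 1.58 CPM with Foxa3 (log2 fold change 5.24, adjusted p = 0.0011; 3.05 without Foxa2 library 4, which held the highest value; set term 0.065). Library 1 was at or below the other Foxa3 libraries for both and sided with Foxa3. Sult1d1 was also higher in the low-type Foxa1 libraries, at a mean of 11.7 CPM against 0.0714 CPM in the high type (log2 7.46, adjusted p = 0.0018). Tat did not pass there (log2 1.57, adjusted p = 0.27). Over the whole xenobiotic list 5 of 35 members were higher and 5 lower, near the background shares, and library 1 sided with Foxa3 in 8 of 9.

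Of 25 liver transcription factors 3 were higher and 3 lower with Foxa2, under the shares of all genes, and Foxa3 library 1 sided with Foxa3 in 1 of 6. Cebpa, which restrains growth and drives metabolic genes in hepatocytes, read 141, 148, 136 and 102 CPM against 24.1, 38.5 and 76.9 CPM (3.12-fold higher with Foxa2, adjusted p = 0.0014), with library 1 the highest Foxa3 library and on the Foxa2 side; the set-term adjusted p was 0.11. Cebpd, the acute-phase member of the family, read 540, 292, 195 and 380 CPM against 20.3, 38.1 and 85 CPM (8.03-fold, adjusted p = 0.001; set term 0.15), with library 1 on the Foxa3 side at position 0.59. In both genes the groups were apart. Cebpa and Cebpd were also higher in the low-type than in the high-type Foxa1 libraries (log2 0.96 and 2.55, adjusted p = 0.045 and 0.00077).

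Most genes of cholesterol and fatty acid synthesis were lower with Foxa2, but Foxa3 library 1 was low as well. Of 29 members 22 were lower with Foxa2 and 1 (Me1, a source of NADPH) higher, beside 15.1% and 16.0% of all genes. The median log2 fold change was -1.37, but Foxa3 library 1 sided with Foxa3 in 1 of the 25 members called without it, and for Me1 it sided with Foxa2. Mvd, which makes isopentenyl diphosphate, read 5.77, 6.12, 4.41 and 4.21 CPM with Foxa2; library 1 read 14.4 and the other Foxa3 libraries 20.2 to 72.9 CPM. It was 8.28-fold higher with Foxa3 (log2 fold change -3.05, SE 0.46, adjusted p = 0.00025; set term -1.64, adjusted p = 0.014), and library 1, between the groups at position 0.48, counted as Foxa2. Fdps, which joins isoprenoid units, read 15.4, 21.1, 11.5 and 18.4 CPM against 29.4 CPM in library 1 and 64.8 to 204 CPM in the others (6.99-fold, adjusted p = 0.00086; set term 0.092). Sqle, the squalene epoxidase, read 38, 52.7, 34.2 and 39.5 CPM, with library 1 just above them at 53.6 CPM and the other Foxa3 libraries at 79.5 to 267 CPM (3.77-fold, adjusted p = 0.001; set term 0.13). On position, library 1 sided with Foxa2 for Fdps and Sqle.

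Srebf2, the factor that switches the pathway on, read 107, 125, 102 and 97.9 CPM with Foxa2 against 149, 199 and 285 CPM with Foxa3 (1.88-fold, adjusted p = 0.00057; set term 0.025), with library 1 the lowest Foxa3 library and on the Foxa2 side at position 0.49. The desaturase Scd2 read 566, 931, 711 and 815 CPM against 615 (library 1), 1958 and 4222 CPM; library 1 lay inside the Foxa2 range and the call (2.69-fold, adjusted p = 0.0076) did not stand with the set term (0.43). Over the list, 3 members were called lower with the set term. Summed over the 29 genes, library 1 held 2535 CPM, within the Foxa2 range of 1996 to 2881 CPM, while Foxa3 libraries 2 to 6 held 3350 to 10388 CPM.

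**Figure D3:**
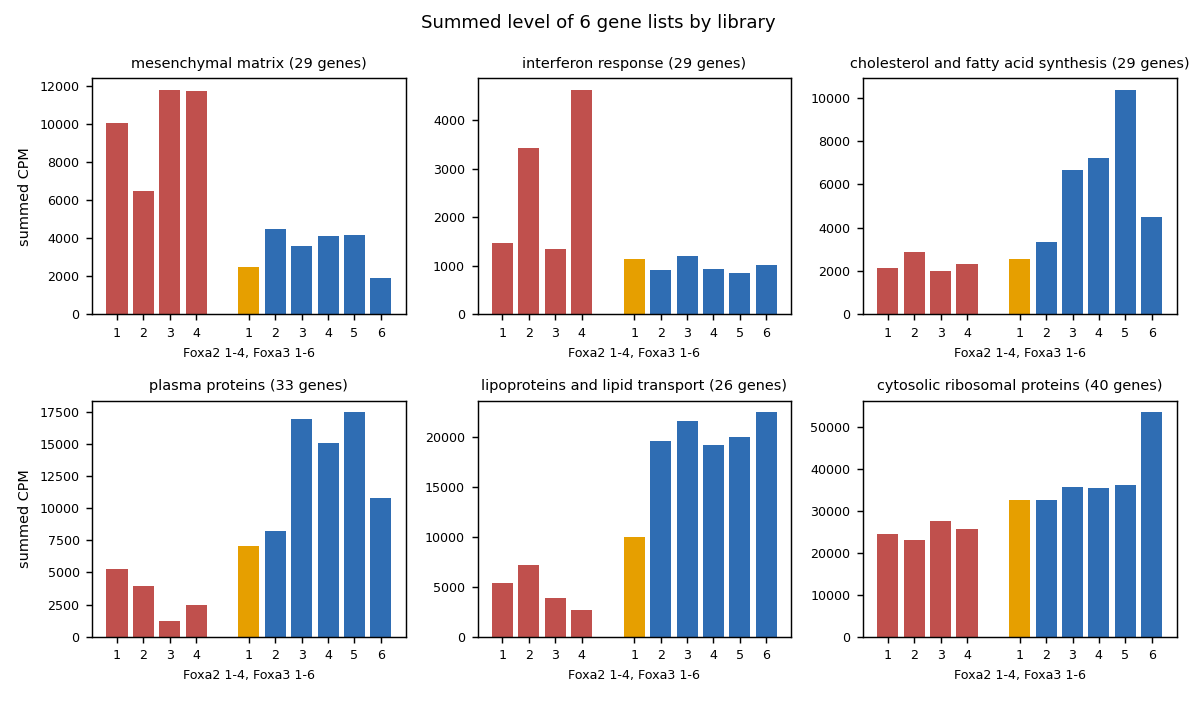
Summed CPM of the members of 6 gene lists in each library, as bars from 0: red, Foxa2 libraries 1 to 4; orange, Foxa3 library 1; blue, Foxa3 libraries 2 to 6. For mesenchymal matrix genes the orange bar (2482 CPM) stands with the blue ones, and for cholesterol and fatty acid synthesis (2535 CPM) with the red ones.

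More mesenchymal matrix genes were higher than lower with Foxa2, and Foxa3 library 1 stayed with its group. Of 29 mesenchymal matrix genes 15 were higher with Foxa2 and 1 lower, beside 16.0% and 15.1% of all genes. The median log2 fold change was 1.91, and library 1 sided with Foxa3 in 15 of 16. With the set term 2 were called higher and 1 lower. Col1a1, the main chain of type I collagen, read 152, 93.6, 300 and 259 CPM with Foxa2 and 12, 20.5 and 39.8 CPM with Foxa3, or 8.96-fold higher with Foxa2 (log2 fold change 3.16, SE 0.58, adjusted p = 0.00099; set term 1.66, adjusted p = 0.24). Library 1 held 12.7 CPM. Col5a1, which nucleates collagen fibrils, read 422, 244, 671 and 658 CPM against 12.4, 20.4 and 29 CPM (23.8-fold, adjusted p = 0.00046; set term 0.23), with library 1 at 19.5 CPM. Loxl1, a crosslinker of elastin, read 87.2, 6.6, 117 and 83.2 CPM against 1.79 (library 1), 3.93 and 9.27 CPM (16-fold, adjusted p = 0.00062; set term 0.17), and overlapped only through Foxa2 library 2. Fibroblasts held 22925 CPM of Col1a1, 11033 CPM of Col5a1 and 1971 CPM of Loxl1, so their levels with Foxa2 were also far under those of the starting cells. By position library 1 went with Foxa3 for these 3 genes. Within Foxa1 cells the low-type libraries were higher for Col1a1, Col5a1 and Loxl1 too, by 2.39, 3.89 and 2.68 on the log2 scale (adjusted p = 0.0031, 7.3e-05 and 0.0056), and the part of the library type in the difference was not tested. The matrix gene that ran the other way was Fbln1, the basement-membrane protein fibulin-1, at 10.1, 8.67, 15.1 and 21 CPM with Foxa2 and 28.6, 82.3 and 132 CPM with Foxa3 (6.02-fold higher with Foxa3, adjusted p = 0.0012; set term 0.034). Library 1 stood at 75.4 CPM, on the Foxa3 side, fibroblasts held 32.3 CPM, and within Foxa1 cells the low-type libraries were lower by -1.96 (adjusted p = 0.0008).

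Of 25 transcription factors of mesenchyme 10 were higher with Foxa2 and 1 lower (all genes 16.0% and 15.1%), and library 1 sided with Foxa3 in 7 of 9. Foxc1, a forkhead factor of head and kidney mesenchyme, read 47.1, 107, 33.2 and 34.9 CPM against 2.65, 4.55 and 6.08 CPM (library 1). It was 12.1-fold higher with Foxa2 (log2 fold change 3.60, SE 0.41, adjusted p = 2.5e-05), and it held with the set term (2.57, adjusted p = 0.0046). Tbx15, a T-box factor of limb and skin mesenchyme, read 152, 233, 172 and 188 CPM against 25.6, 37.1 and 54.9 CPM (library 1; 4.95-fold, adjusted p = 0.0055; set term 0.73). Foxc2 was high in 1 library alone: 116 CPM in Foxa2 library 1, 0.677, 1.32 and 0.5 CPM in the others and at most 0.363 CPM with Foxa3. Its log2 fold change fell from 7.48 (adjusted p = 0.00084) to 2.35 (adjusted p = 0.044) without that library, and the set-term adjusted p was 0.062. Library 1 of Foxa3 sided with Foxa3 for Foxc1, Tbx15 and Foxc2. Within Foxa1 cells the low-type libraries were higher for Foxc1 and Tbx15 by 1.57 and 2.76 on the log2 scale (adjusted p = 0.0051 and 0.00039).

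In the hedgehog list 4 of 14 were higher and 1 lower, beside 16.0% and 15.1% of all genes. Library 1 sided with Foxa3 in all 4 called without it. Gas1, a surface co-receptor for hedgehog, read 166, 83.7, 143 and 118 CPM against 5.16, 9.16 and 14.7 CPM (13.8-fold, adjusted p = 0.0005; set term 0.2). In the Wnt list 12 of 32 were higher and 3 lower, with 12 of 17 on the Foxa3 side. The Wnt receptors Fzd1 and Fzd2 read 77.9, 18.3, 139 and 45.2 CPM and 60.2, 39, 49.2 and 66.7 CPM with Foxa2, against at most 16.6 and 6.78 CPM with Foxa3 (8.79-fold, adjusted p = 0.00061, and 10.2-fold, adjusted p = 0.001; set term 0.1 and 0.32). Lgr4, a receptor that boosts Wnt signals, was lower with Foxa2 at 52, 85.2, 54.5 and 31.3 CPM against 88 (library 1), 178 and 247 CPM (3.19-fold, adjusted p = 0.0061; set term 0.042). The first Foxa3 library sided with Foxa3 for Gas1, Fzd1 and Fzd2 and with Foxa2 for Lgr4 (position 0.40). Gas1, Fzd1 and Fzd2 were also higher in the low-type Foxa1 libraries (log2 3.21, 1.76 and 2.98, adjusted p = 0.00014, 0.027 and 0.00029). Lgr4 did not pass there (log2 1.07, adjusted p = 0.075).

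The TGF-beta and BMP list held 13 of 31 members higher with Foxa2 and 3 lower, beside 16.0% and 15.1% of all genes. Library 1 sided with Foxa3 in 8 of 16. Nog, a secreted BMP antagonist, read 405, 225, 414 and 318 CPM against 45.7, 98.2 and 181 CPM (3.42-fold, adjusted p = 0.00051; set term 0.027), with library 1 the highest Foxa3 library and on the Foxa2 side at position 0.41. Smad6, an inhibitor inside the BMP pathway, read 37.3, 35.9, 79.3 and 67.5 CPM against 3.76, 6.25 and 11.1 CPM (7.86-fold, adjusted p = 0.0035; set term 0.49), with library 1 on the Foxa3 side. In the list of FGF, EGF and HGF signalling 6 of 31 were higher and 6 lower, near the shares of all genes, with 10 of 12 on the Foxa3 side. Fgf7, the keratinocyte growth factor of mesenchyme, read 207, 352, 206 and 341 CPM with Foxa2 against 12.8 (library 1), 26.8 and 53.8 CPM (9.07-fold, adjusted p = 0.0009; set term 0.16). Btc, an EGF receptor ligand, ran opposite at 3.5, 6.22, 4.82 and 6.93 CPM against 19, 33 and 54.9 CPM (6.5-fold higher with Foxa3, adjusted p = 0.00048; set term 0.016). Dusp6, the ERK phosphatase that rises with ERK signalling, went with Btc: 171, 158, 111 and 170 CPM against 266, 318 and 433 CPM (2.19-fold higher with Foxa3, adjusted p = 0.0036; set term 0.034). Foxa3 library 1 took the side of Foxa3 for Fgf7, Btc (27.9 CPM) and Dusp6, for which it was the highest of the 10 libraries. Smad6 and Fgf7 were also higher in the low-type Foxa1 libraries (log2 2.78 and 1.98, adjusted p = 0.0045 and 0.017). Nog, Btc and Dusp6 did not pass there (adjusted p = 0.9, 0.24 and 0.75).

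More epithelial genes were higher than lower with Foxa2, and several of them through 1 library. Of 40 listed, 12 were higher with Foxa2 and 2 lower, beside 16.0% and 15.1% of all genes. Library 1 sided with Foxa3 in 10 of 16, and with the set term 2 were called higher and 1 lower. E-cadherin (Cdh1), the junction protein of epithelia, was present in both at 428, 967, 682 and 340 CPM with Foxa2 and 197 (library 1), 357 and 678 CPM with Foxa3 and did not pass (log2 fold change 0.57, SE 0.35, adjusted p = 0.21; library 1 on the Foxa3 side), against 0.191 CPM in fibroblasts. Lsr, a receptor at tricellular junctions, read 168, 274, 172 and 117 CPM with Foxa2 against 280, 424 and 557 CPM with Foxa3 (2.34-fold higher with Foxa3, adjusted p = 0.0035; set term 0.045). Pkp2, a desmosome protein, read 63.7, 58.5, 29.5 and 25.7 CPM against 77.3, 86.9 and 138 CPM (2.15-fold, adjusted p = 0.0068; set term 0.058). For Lsr and Pkp2 library 1 was the highest of the 10 libraries and sided with Foxa3.

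Several epithelial genes were higher with Foxa2 chiefly through Foxa2 library 2. Krt7, a keratin of ducts and simple epithelia, read 166, 980, 153 and 148 CPM against 8.88, 27.7 and 80.8 CPM (log2 fold change 3.43, adjusted p = 0.0073; 2.21 and 0.06 without that library; set term 0.18). Cldn4, a tight-junction claudin, read 12, 448, 5.92 and 38.4 CPM against 1.99, 3.37 and 11.6 CPM (4.46, adjusted p = 0.006; 1.71 and 0.18 without it; set term 0.051). Grhl2, a regulator of epithelial junction genes, read 7.08, 94, 1.51 and 8.86 CPM against 0.541, 1.05 and 4.02 CPM (3.88, adjusted p = 0.0089; 1.62 and 0.2 without it; set term 0.049), and Tfap2b, an AP-2 factor of neural crest and kidney, 0.548, 147, 0.189 and 5.64 CPM against 0.0331, 0.307 and 0.793 CPM (6.76, adjusted p = 0.0065; 2.59 and 0.18 without it; set term 0.027). These 4 calls were lost without that 1 library. S100a14, a calcium-binding protein of epithelia, kept its call without it: 52, 530, 66.4 and 114 CPM against 2.89, 9.5 and 12.6 CPM (log2 fold change 4.44, adjusted p = 0.00088; 3.13 and 0.006 without library 2; set term 4.97, adjusted p = 0.011). Edn1, the vasoconstrictor endothelin-1, and Fam25c kept theirs too, at 3.61, 108, 1.89 and 9.14 CPM against at most 1.58 CPM (5.61 and 2.97, adjusted p = 0.0005 and 0.0054, with and without library 2; set term 0.031) and at 6.64, 141, 5.48 and 2.36 CPM against at most 0.628 CPM (6.88 and 3.86, adjusted p = 0.00033 and 0.0022; set term 0.011). Foxa3 library 1 sided with Foxa3 for all of these but Cldn4, for which it held 11.3 CPM, lay in both ranges and counted as Foxa2.

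**Figure D4:**
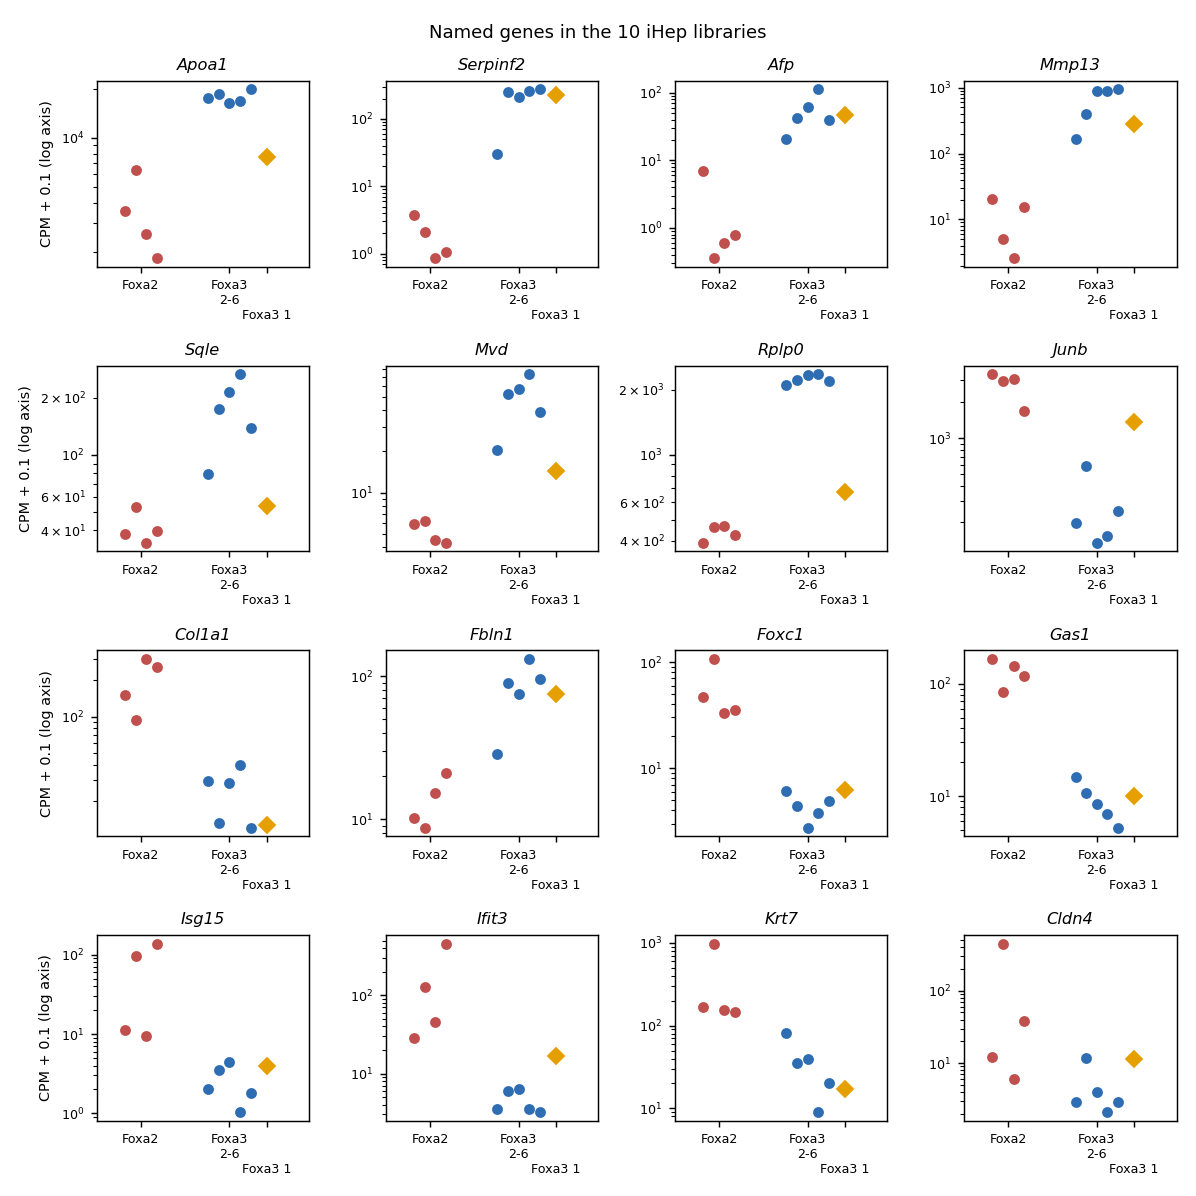
CPM plus 0.1 on log axes for 16 genes in the 10 libraries, with red circles for Foxa2 libraries 1 to 4, blue circles for Foxa3 libraries 2 to 6 in order and an orange diamond for Foxa3 library 1. The diamond lies with the blue points for Serpinf2, Col1a1 and Isg15 and with or near the red ones for Sqle, Rplp0 and Junb.

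Of 17 stomach and foregut genes tested 1 was higher and 1 lower with Foxa2, under the shares of all genes (16.0% and 15.1%). The lower one was Spink1, the trypsin inhibitor of pancreas and stomach, at 405, 105, 206 and 91.7 CPM with Foxa2 against 2722 (library 1), 3197 and 7017 CPM with Foxa3, while hepatocytes held 0.306 CPM. It was 20.1-fold higher with Foxa3 (log2 fold change -4.33, SE 0.86, adjusted p = 0.0016; -4.92 without Foxa2 library 1; set term -3.18, adjusted p = 0.031), and library 1 sided with Foxa3. Of 10 lung epithelium genes tested 5 were higher and none lower with Foxa2, with a median log2 fold change of 2.39; library 1 sided with Foxa3 in all 4 called without it, and 1 was called higher with the set term. Sftpd, surfactant protein D, read 25.3, 43.3, 0.0945 and 4 CPM with Foxa2 and at most 0.193 CPM with Foxa3 (log2 fold change 7.99, adjusted p = 0.0016; 7.10 without Foxa2 library 2 and 8.64 without Foxa3 library 3; set term 0.071), so Foxa2 library 3 overlapped the Foxa3 libraries; library 1 sided with Foxa3. Atp12a, a proton pump of colon and other epithelia, read 246, 198, 492 and 26.5 CPM against 2.25 (library 1), 12.1 and 23.8 CPM (19.5-fold, log2 fold change 4.28, adjusted p = 0.0042; 3.67 without Foxa2 library 3). Its set-term value was larger, 7.37 (adjusted p = 0.0017), and within Foxa1 cells it was lower in the low-type libraries (log2 -3.82, adjusted p = 0.0095), the opposite of the sign between Foxa2 and Foxa3; library 1 sided with Foxa3.

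Interferon-response genes were higher with Foxa2 in 21 of 29 members, beside 16.0% of all genes, and Mx1 was lower, with library 1 on the Foxa2 side. The list's median log2 fold change was 1.76. These genes are switched on when interferon receptors activate a complex that contains Irf9, which reads a repeated GAAA element in their promoters. Of the 22 called members, 19 have an entry among the RefSeq promoters of build GRCm38.p6, and 7 of these (36.8%) hold GAAA followed after any 2 bases by another GAAA, on either strand, in the 250 bases before the gene start. Of the 7 members not called 6 have an entry and 3 hold it, against 978 (2.98%) of all 32851 promoters in the table and 102 of the 2040 of genes called higher with Foxa2. A match is a description of the letters, not of binding. The 150 bases before the start are shown for Isg15 and Ifit3, because both genes were among the most changed and carry the element, and for the collagenase gene Mmp13, described further on, because it holds the forkhead letters TGTTTAC. Capitals mark the matches, which in Isg15 are 3 overlapping ones; the stretches are chr4:156200819-156200968 on the minus strand, chr19:34583379-34583528 on the plus strand and chr9:7272364-7272513 on the plus strand.
Isg15: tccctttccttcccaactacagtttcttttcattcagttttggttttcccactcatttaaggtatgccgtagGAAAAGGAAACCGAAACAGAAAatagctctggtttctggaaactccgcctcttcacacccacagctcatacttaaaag
Ifit3: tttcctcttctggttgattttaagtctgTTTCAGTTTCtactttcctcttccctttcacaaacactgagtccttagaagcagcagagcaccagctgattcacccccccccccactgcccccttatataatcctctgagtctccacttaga
Mmp13: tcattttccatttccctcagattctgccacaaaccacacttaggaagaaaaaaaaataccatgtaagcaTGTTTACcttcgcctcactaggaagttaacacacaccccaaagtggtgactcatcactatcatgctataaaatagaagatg

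Isg15, the ubiquitin-like protein of the interferon response, read 11.1, 95.4, 9.29 and 138 CPM with Foxa2 and 0.931, 2.68 and 4.36 CPM with Foxa3 (log2 fold change 4.55, SE 0.80, adjusted p = 0.0007; 3.83 without Foxa2 library 4; set term 3.17, adjusted p = 0.079). Ifit3, another member of the interferon list, read 28.2, 127, 45.8 and 458 CPM against 3.1, 4.66 and 16.8 CPM (4.67, adjusted p = 0.00061; 3.37 without Foxa2 library 4; set term 3.01, adjusted p = 0.043). Irf7, the factor that amplifies the response, read 23.8, 86.9, 23.6 and 156 CPM against 2.83, 5.65 and 12.5 CPM (3.47, adjusted p = 0.00072; 2.78 without Foxa2 library 4; set term 0.075). In all 3 genes Foxa2 libraries 2 and 4 were the highest, the groups were apart, and library 1 sided with Foxa3, inside the range of the others for Isg15 (3.84 CPM) and above it for Ifit3 and Irf7 (16.8 and 12.5 CPM). Irf9, the DNA-binding part of the complex, was steadier at 36.2, 75.7, 52.4 and 79.5 CPM against 12.7, 17.8 and 25.2 CPM (3.47-fold, log2 fold change 1.80, SE 0.26, adjusted p = 0.00021; set term 1.44, adjusted p = 0.023), with library 1 at 18.4 CPM within the Foxa3 range. Ifit3 and Irf7 were also higher in the low-type Foxa1 libraries (log2 2.45 and 1.88, adjusted p = 0.035 and 0.038). Isg15 and Irf9 did not pass there (adjusted p = 0.079 and 0.16).

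Other genes known to follow interferon stood among the largest changes. Ifi44 read 1.86, 36, 2.49 and 93.3 CPM against 0, 0.0859 and 1.32 CPM (log2 fold change 6.65, adjusted p = 0.0009; 5.34 without Foxa2 library 4 and 8.01 without Foxa3 library 1; set term 0.047), and library 1, the highest Foxa3 library, sided with Foxa2 at position 0.49. Apol9b read 9.38, 53, 6.64 and 49.2 CPM against 0.241, 0.351 and 0.562 CPM (6.27, adjusted p = 0.00019; set term 0.046), and Phf11d 4.23, 23.1, 5.32 and 41.5 CPM against 0.133, 0.352 and 0.628 CPM (5.70, adjusted p = 9.6e-05; 4.93 without Foxa2 library 4; set term 0.0087); library 1 sided with Foxa3 for both. Apol9b was also higher in the low-type than in the high-type Foxa1 libraries (log2 3.89, adjusted p = 0.003). Ifi44 and Phf11d did not pass there (adjusted p = 0.075 and 0.15). Over the whole interferon list library 1 sided with Foxa3 in 15 of the 23 members called without it, and 5 members were called higher with the set term. Of 17 leukocyte and Kupffer cell markers 1 was lower with Foxa2 and none higher, under the shares of all genes (15.1% and 16.0%). That 1 was Cd14, at 29.1, 71, 7.43 and 17.6 CPM against 32.3 (library 1), 88.1 and 138 CPM. It was 2.93-fold higher with Foxa3 (adjusted p = 0.03, set term 0.66), with library 1 on the Foxa2 side. The defining leukocyte genes Ptprc, Adgre1 and Csf1r were each at or under 0.193 CPM in all 10 libraries and at 0 in library 1. The whole leukocyte list, Cd14 included, summed to 8.72 to 71.6 CPM with Foxa2 and 32.9 to 143 CPM with Foxa3.

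Of 23 chemokine and cytokine genes 8 were higher with Foxa2 and none lower, beside 16.0% and 15.1% of all genes. Library 1 sided with Foxa3 in 6 of 7. With the set term none was called higher and 1 lower, the cytokine Lif (log2 fold change -1.46, adjusted p = 0.032), which was not called without it (-0.51, adjusted p = 0.35) and was highest in library 1 at 323 CPM. For Lif library 1 counted as Foxa3 (position 10.81) but lay above the ranges of both groups. Ccl2, which attracts monocytes, read 63.8, 82.5, 65.4 and 102 CPM against 3.57 (library 1), 7.6 and 11.3 CPM (10.5-fold, adjusted p = 0.00089; set term 0.2). Cxcl15, a chemokine of lung epithelium, read 323, 317, 92.7 and 394 CPM against 3.01 (library 1), 19.7 and 40.3 CPM (14.3-fold, adjusted p = 0.001; set term 0.16). Library 1 was the lowest of the 10 libraries for both and sided with Foxa3. Ccl2 and Cxcl15 were also higher in the low-type than in the high-type Foxa1 libraries (log2 2.37 and 2.19, adjusted p = 0.0061 and 0.032).

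Among immediate early, heat shock and ribosomal protein genes Foxa3 library 1 sided mostly with Foxa2. Immediate early and heat shock genes, which respond within minutes to stimulation or stress, were higher with Foxa2 in 12 of 23 members and lower in none. The shares of all genes were 16.0% and 15.1%. Library 1 sided with Foxa3 in 3 of 15, and no member was called with the set term. The AP-1 subunit Junb read 3385, 2997, 3109 and 1688 CPM with Foxa2, 1348 CPM in library 1 and 135 to 586 CPM in the other Foxa3 libraries (log2 fold change 2.65, adjusted p = 0.0079; 3.41 without library 1; set term 0.63, adjusted p = 0.52). Jund, another subunit, read 936, 1003, 920 and 450 CPM, 610 CPM in library 1 and 81.1 to 191 CPM in the others (2.02, adjusted p = 0.0062; 2.74 without library 1; set term 0.22). Klf6, an early zinc-finger factor, read 386, 1079, 685 and 384 CPM, 271 CPM in library 1 and 73.7 to 161 CPM in the others (2.05, adjusted p = 0.0049; set term 0.58). On position, library 1 sided with Foxa2 for all 3. Within Foxa1 cells the low-type libraries were higher for Junb, Jund and Klf6 by 3.10, 1.75 and 2.29 on the log2 scale (adjusted p = 0.002, 0.02 and 0.00077).

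Cytosolic ribosomal protein genes were lower with Foxa2 in 26 of 40 members and higher in 1, beside 15.1% and 16.0% of all genes. The median was -1.15, library 1 sided with Foxa3 in 6 of 28, and none was called with the set term. Rplp0, a stalk protein of the large subunit, read 390, 461, 467 and 425 CPM with Foxa2, 669 CPM in library 1 and 2093 to 2357 CPM in the others (4.54-fold, adjusted p = 0.0028; set term -0.33, adjusted p = 0.28). Rps29, given above, was 17-fold higher with Foxa3 (adjusted p = 0.0037; set term -0.38, adjusted p = 0.49), and Rn7sk changed sign with the set term, from -5.29 (adjusted p = 0.0081) to 0.61 (adjusted p = 0.67). By position library 1 went with Foxa2 for Rplp0, Rps29 and Rn7sk. Since Rn7sk defines the library types, its side and its move toward 0 with the set term follow from that definition and are no result. Within Foxa1 cells the low-type libraries were lower for Rplp0 and Rps29 by -2.30 and -4.79 on the log2 scale (adjusted p = 5.7e-05 and 1.7e-05). Ribosomal protein genes have many processed copies in the genome, so the share of reads given to each is uncertain.

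Several of the largest changes outside the lists were higher with Foxa3, in library 1 as well. All were picked from calls that used library 1, and the rule for the largest changes asked that the groups not overlap. The side of library 1 was thus partly fixed by the choice. Among all called genes without overlap it sided with Foxa3 in 69.3%, against 41.9% of the genes called without it. Mmp12, macrophage elastase, read 0.511, 0.0966, 0 and 0.0357 CPM with Foxa2 and 4, 34.5 and 118 CPM with Foxa3 (log2 fold change -8.18, SE 1.43, adjusted p = 0.0007; -9.91 without Foxa2 library 1; set term -5.65, adjusted p = 0.0085). Mmp13, a collagenase whose promoter letters are printed above, read 20, 4.93, 2.49 and 15.2 CPM against 166, 641 and 936 CPM, 55.6-fold higher with Foxa3 (-5.80, SE 0.88, adjusted p = 0.00026; set term -4.25, adjusted p = 0.0046). Library 1 held 16.4 CPM of Mmp12 and 282 CPM of Mmp13, inside the Foxa3 range for both. Within Foxa1 cells the low-type libraries were lower for Mmp12 and Mmp13 too (log2 -4.23 and -2.20, adjusted p = 0.0039 and 0.031). The part of the library type in these differences was not tested. The forkhead letters TGTTTAC, or GTAAACA on the other strand, were found in the 250 bases before the start of 3.17% of all promoters, of 2.60% of the genes called higher with Foxa2 and of 3.09% of those called lower.

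Sprr2a1, a cornified-envelope protein of stratified epithelium, read 6.21, 9.41, 0.945 and 3.18 CPM against 42.4, 351 and 577 CPM (69.7-fold, adjusted p = 0.00039; set term 0.0061); it has near-identical neighbours, so its share of reads is uncertain. Arap3, a regulator of small GTPases, had little spread with Foxa2 at 0.511, 0.322, 0.378 and 0.5 CPM and read 4.44, 15.3 and 19.4 CPM with Foxa3 (30.8-fold, log2 fold change -4.94, SE 0.56, adjusted p = 2.5e-05; set term -4.86, adjusted p = 0.00025). Dpp6, a partner of potassium channels, read 1.68, 2.09, 0.283 and 0.714 CPM against 23.3, 37.2 and 75.2 CPM (37.5-fold, adjusted p = 0.00093; set term 0.011). Library 1 lay inside the Foxa3 range for these 3 genes, at 178, 18.7 and 62 CPM. Within Foxa1 cells Dpp6 was lower in the low-type libraries too (log2 -3.50, adjusted p = 0.00092). Sprr2a1 and Arap3 did not pass there (log2 0.34 and -0.66, adjusted p = 0.82 and 0.39). In the other direction Tox, an HMG-box nuclear factor, read 4.78, 19.4, 20.2 and 28.1 CPM with Foxa2 and 0.0992 (library 1), 0.372 and 0.762 CPM with Foxa3. It was 44.7-fold higher with Foxa2 (5.48, SE 0.59, adjusted p = 1.4e-05; set term 5.91, adjusted p = 0.0005), with library 1 the lowest of all and on the Foxa3 side, and within Foxa1 cells it did not pass between library types (log2 -0.08, adjusted p = 0.96).

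**Figure D5:**
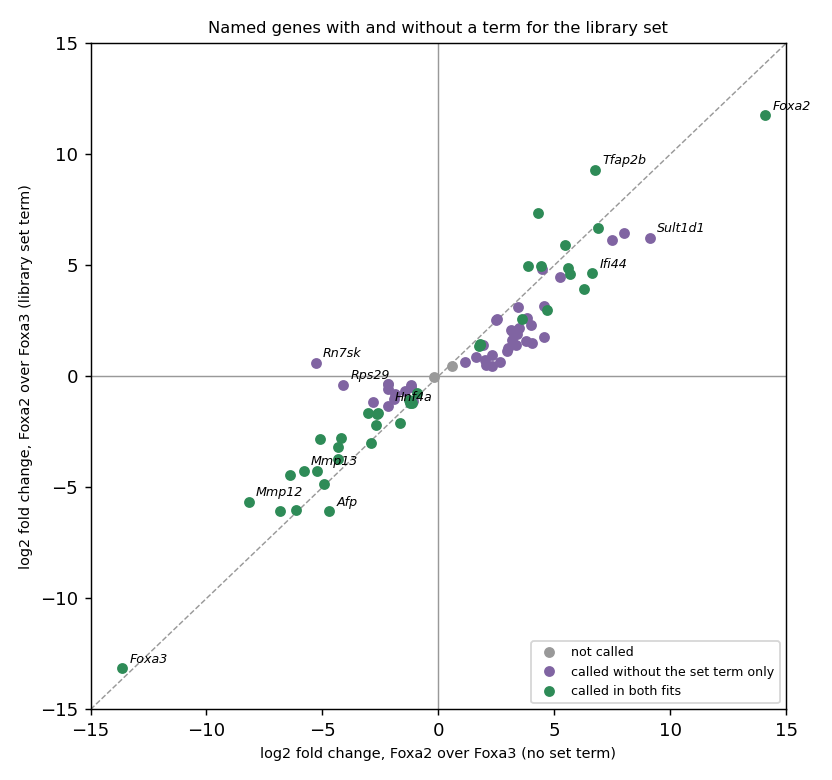
Log2 fold change (Foxa2 over Foxa3) of the 84 named genes without (horizontal) and with (vertical) a term for library type; green points were called in both fits (39 genes), purple ones without the term only (42) and grey ones in neither (3), and the dashed line marks equal values. Rn7sk, which defines the library types and so was bound to move, and Rps29 move to near 0 with the term, while Afp and Tfap2b lie farther from 0 with it.

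Few growth genes passed the test. Of 31 proliferation genes 3 were higher and 2 lower with Foxa2, under the background shares, and library 1 sided with Foxa3 in 1 of 6. Mki67, a mark of cycling cells, read 69.1, 208, 125 and 211 CPM with Foxa2 and 120, 152 and 272 CPM with Foxa3 and did not pass (log2 fold change -0.20, SE 0.27, adjusted p = 0.6; 0.04 without Foxa2 library 1); library 1, at 140 CPM, lay in both ranges and counted as Foxa2. Myc, the growth factor target and transcription factor, read 61, 112, 70.2 and 85.4 CPM against 118 (library 1), 158 and 314 CPM (2.28-fold higher with Foxa3, adjusted p = 0.0086; set term 0.52), with library 1 on the Foxa2 side at position 0.45. Among p53 targets and cell-cycle inhibitors 7 of 23 were higher with Foxa2 and 2 lower, beside 16.0% and 15.1% of all genes. Library 1 was on the Foxa3 side in 4 of 10. Trp53 itself, encoding p53, read 36.7, 47.1, 41.5 and 43.7 CPM against 66.4 (library 1), 93.2 and 123 CPM (2.24-fold higher with Foxa3, adjusted p = 0.001; set term 0.073; Foxa3 side at position 0.53). Its target Phlda3, an AKT inhibitor, read 690, 500, 664 and 617 CPM with Foxa2, 623 CPM in library 1 and 138 to 271 CPM in the other Foxa3 libraries (2.21-fold, adjusted p = 0.01; set term 0.3), so library 1 lay within Foxa2. Gadd45b, a stress-induced inhibitor of growth, read 156, 286, 118 and 164 CPM against 35.5, 52.8 and 83 CPM (3.34-fold, adjusted p = 0.0006; set term 0.047), with library 1 at 64.6 CPM on the Foxa3 side.

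For the 2 lists that follow, the shares of all genes were 16.0% higher and 15.1% lower. Of 17 imprinted genes 5 were higher with Foxa2 and none lower, with library 1 on the Foxa3 side in 3 of 6. Of 11 oncofetal genes 2 were higher and 3 lower, with a median log2 fold change of -0.32 and library 1 on the Foxa3 side in 4 of 6. Igf2, the fetal insulin-like growth factor, read 211, 1158, 591 and 2354 CPM with Foxa2 and 77.8, 143 and 502 CPM with Foxa3 (5.52-fold, log2 fold change 2.47, adjusted p = 0.011); the call was lost without Foxa2 library 4 (1.74, adjusted p = 0.07) and with the set term (2.56, adjusted p = 0.16). Dlk1, a Notch-like protein of fetal liver and stroma, read 49.9, 9.99, 372 and 155 CPM against 20.1, 23.4 and 34 CPM (5.72-fold, log2 fold change 2.52, adjusted p = 0.0043; 1.48 and 0.049 without Foxa2 library 3; set term 0.078). Both overlapped between the groups, and library 1 sided with Foxa3 for both, at 83.8 CPM of Igf2 and 22.9 CPM of Dlk1. Fibroblasts held 4530 CPM of Igf2 and 124 CPM of Dlk1.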

How the data were processed

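Stranded mRNA libraries were sequenced, per the labels' protocols, and aligned by the authors with BWA 0.7.12 to mm9, per the submitters' processing notes; the quantifier is not given in the sources used here. Per the file headers, each transcript has an expected count, its FPKM and its fraction of all transcripts, as the authors deposited them. Expected counts of 30710 transcripts were summed into 23712 gene rows by transcript name (30190 matched in RefSeq and 181 in GENCODE) and rounded; the 339 unmatched names held 0.715% to 3.02% of the reads of the 10 libraries. FPKM served an alternative, and the fraction was not used. Since the files are on mm9, no coordinate was taken from them; promoters are RefSeq's on GRCm38.p6.

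edgeR 4.0.16 in R 4.3.3 fitted all 28 libraries in 9 groups (19 residual degrees of freedom) with TMM scaling and filterByExpr, which kept 16499 genes, and tested Foxa2 against Foxa3 with a 2-sided quasi-likelihood test; a Benjamini-Hochberg adjusted p under 0.05 was a call. The standard error is the log2 fold change over the square root of F. CPM use TMM-scaled library sizes and do not compare genes of different length. The set-term fit added a term for Rn7sk under or over 10 CPM. Alternatives were DESeq2 1.42.0, limma 3.58.1 on log2 of FPKM plus 1 (genes with at least 1 FPKM in 2 libraries), other scaling, filters and gene sums, the 2 groups alone, a replicate block, and each library left out.

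Eligible for naming were the introduced factors, the 12 largest called changes each way whose groups did not overlap, the 8 largest each way among others also called with the set term (both with a higher group mean of at least 5 CPM), and from each list up to 4 calls with the lowest adjusted p plus up to 4 members of the highest CPM; the text names a part of these, chosen after their values were seen, and some eligible genes are not reported here. Rn7sk and Rps29 mark the library types. Cp, Mttp, Me1, Mx1, Lif, Cd14, Ptprc, Adgre1, Csf1r and Hba-a1, outside the rule or given as single exceptions, were also named after their values were seen. Alb, named to check the label, was outside the rule as well. The comparison, the members and the gene lists were chosen with earlier results of these data known. In counts simulated for Foxa2 against Foxa3 (16499 genes, 100 changed by each fold) the test called 47.0% of genes changed 2-fold and 89.0% of those changed 4-fold, with 9 unchanged genes among 145 calls. The changed genes were drawn only from those above a minimum mean count. The simulation held no difference of library type and far fewer changed genes than were called here, so its shares do not carry over to the real comparison.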

Additional observations from a re-analysis of the deposited data

Results flagged for a closer look

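In 17 of 168 tests of a named gene within the 4 Foxa2 or the 6 Foxa3 libraries, 1 library stood apart from the rest by Dixon's test at the 95% level, where chance gives about 1 in 20. Foxa3 library 1 stood apart in 5 genes. It held 0.628 CPM of Foxa2 against 0 in the other Foxa3 libraries, 0.959 CPM of Rn7sk against 37.2 to 72.5, 58.7 CPM of Rps29 against 425 to 831, 669 CPM of Rplp0 against 2093 to 2357, and 7588 CPM of Apoa1 against 16333 to 19763. Rn7sk defines the library types, so its flag in Foxa3 library 1 is no separate result. Foxa3 library 2 was low for 3 liver and matrix genes, with 30.5 CPM of Serpinf2 against 208 to 273, 99 CPM of Pcx against 128 to 147 and 28.6 CPM of Fbln1 against 74.6 to 132. Foxa3 library 6 held 0 CPM of Foxa1 against 0.0965 to 0.198.

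Among the Foxa2 libraries, library 1 held 116 CPM of Foxc2 against 0.5 to 1.32. Library 2 held 980 CPM of Krt7 against 148 to 166, and 6.6 CPM of Loxl1 against 83.2 to 117. Library 3 held 14.5 CPM of the fibrinogen gene Fgb against 119 to 162, and 92.7 CPM of Cxcl15 against 317 to 394. Library 4 held 97.3 CPM of Tat against 5.73 to 7.65, 450 CPM of Jund against 920 to 1003, and 0 CPM of Rn7sk against 1.31 to 2.16.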

How the results depend on the processing

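The count of 5139 genes (2643 higher, 2496 lower with Foxa2) became 800 (297 and 503) with the set term, 280 (69 and 211) with library 1 as the only Foxa3 library, 747 (349 and 398) with a replicate block in the 2 groups alone, and 2870 (1573 and 1297) when a 2-fold change was asked for. Leaving out each library gave 3771 to 6343 calls, 2015 to 3391 higher and 1756 to 2952 lower; the highest was without Foxa3 library 1. Same-numbered libraries did not deviate together (r = -0.03, -0.07, -0.02 and 0.08). Library type is part of the Foxa3 deviations and the labels name no pairs, so these values cannot show whether same-numbered libraries share an origin. The block could be fitted for 82 of the 84 named genes, and 50 kept their direction and side of the threshold. DESeq2's size factors, no filter, the most abundant transcript per gene, the 2 groups alone, DESeq2's Wald test and limma on FPKM gave 5206, 4941, 5141, 4217, 5977 and 5014 calls.

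With the set term 42 of the 84 named genes kept direction and side, 41 lost the call and Rn7sk turned to a log2 fold change of 0.61. With Foxa3 library 1 alone 11 kept theirs, 68 lost the call and 5 turned: Rn7sk to 0.41, Ahsg to 1.66, Scd2 to 0.25, Mki67 to 0.08 and Phlda3 to -0.06. That setting has 1 Foxa3 library, assumed to vary like the other groups. Mki67 ran from -0.39 to 0.04 as each library was left out. Of the 81 named genes called, 75 kept the call without each library in turn. The causes were not tested.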

Other observations

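The gene lists of other cell types and organs not yet described gave these counts, beside 16.0% of all genes called higher and 15.1% called lower with Foxa2. Of 19 cholangiocyte and progenitor genes 6 were higher and 2 lower with Foxa2, and Foxa3 library 1 sided with Foxa3 in 5 of the 8 called without it. Of 25 intestinal genes 3 were higher and 1 lower, of 9 pancreas genes 2 and 2, and of 32 Hox genes 2 and 1. For smooth muscle contractile genes the counts were 3 higher and none lower of 15, and for stellate cell markers none higher and 1 lower of 12. Of 16 endothelial markers 3 were higher and 5 lower. Genes of bile acid synthesis and transport were higher in 4 of 19 and lower in 2, and genes of the unfolded protein and integrated stress responses lower in 4 of 20 and higher in none. In that last list library 1 sided with Foxa3 in 3 of the 6 members called without it.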
